A study of Rattus norvegicus with 6 samples.

Results

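The genes described here encode RNA-binding proteins of the Elavl, Musashi, Igf2bp and Lin28 families, measured as mRNA in cultured cortical neural progenitors of the rat. They were chosen by symbol from a list of 10 genes (*Elavl1* to *Elavl4*, *Msi1*, *Msi2*, *Igf2bp1* to *Igf2bp3* and *Lin28b*), and 7 of these were found among the 17337 gene names of the expression tables. *Msi2*, *Igf2bp3* and *Lin28b* were not analysed here. The cells came from cortices of Sprague Dawley rats at embryonic day 14, were expanded in medium with bFGF and EGF, and were collected after the second passage. All libraries are of this 1 untreated condition, and the labels do not say how many embryos went into a culture. PolyA-selected RNA of 2 biological replicates, A and B, was sequenced as 2 technical libraries each (A1 and A2, B1 and B2), while the 2 Start-seq samples of the series were not analysed here. Levels are in FPKM, a fragment count scaled to transcript length and library depth, so that genes can be compared with each other.

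The 4 Elavl proteins (also called Hu proteins) bind U-rich and AU-rich stretches of RNA and mostly stabilise the mRNA or alter its splicing and translation. *Elavl1* (HuR) is made in nearly every cell type, whereas *Elavl2* (HuB), *Elavl3* (HuC) and *Elavl4* (HuD) appear as cortical cells become neurons and are widely used as marks of neuronal identity. On the other side of this switch, Musashi proteins repress the translation of target mRNAs in neural stem cells, Igf2bp proteins bind and stabilise mRNAs in fetal tissue, and Lin28b keeps the let-7 precursors from being processed. The progenitor genes of the list are therefore *Msi1*, *Igf2bp1* and *Igf2bp2*, the neuronal genes *Elavl2*, *Elavl3* and *Elavl4*, and *Elavl1* was kept apart.

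Both kinds of gene were detected in these cultures. All 7 genes had an average of 1 FPKM or more, as did 60.5% of all gene names, and each was above 1 FPKM in every library. *Msi1* stood highest, followed by *Elavl1*, *Elavl4*, *Igf2bp2*, *Elavl3*, *Igf2bp1* and *Elavl2*. Among the neuronal genes, *Elavl4* was 2.16-fold higher in A, *Elavl2* was 1.53-fold higher in A, and *Elavl3* was 1.49-fold higher in B.

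With 2 biological replicates of 1 condition no test between groups was possible, so differences between A and B are described against the technical libraries and against all other genes. The libraries were not equally deep. The coverage that corresponded to 1 FPKM was between 22.7 and 24.4 in A1, A2 and B1 and was 6.83 in B2, which is 28.1% of the value of B1. The lowest coverage of any of the 7 genes was 18.1, for *Elavl2* in B2. Of 14 progenitor markers 13 were in the tables, and all 13 were at 1 FPKM or more. So were 15 of 15 mesenchymal and meningeal markers and 9 of 11 astrocyte and oligodendrocyte markers. Reaching this level therefore does not verify the labelled cell type. *Fabp7*, a fatty acid binding protein of radial glia, had 17678 FPKM in A and 6003 in B. The intermediate filament gene *Vim* had 3026 and 3555 FPKM, higher in B only through B2 (B1 2652, B2 4458), and *Sox2*, a transcription factor of neural stem cells, had 575 and 381 FPKM. Markers of mesenchymal and meningeal cells were also present and were higher in B, and their values are given with the results they accompany.

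*Msi1*, which encodes Musashi-1, lies on the minus strand of rn6 at chr12:46899835-46920914. Its level was 139 and 115 FPKM in A1 and A2 against 109 and 158 FPKM in B1 and B2. The libraries of A and B overlapped, and the highest and the lowest values were the technical libraries of the same replicate. The mean was 131 ± 4.55 FPKM (SD, n = 2), at or above 92.3% of the genes with at least 1 FPKM. B1 and B2 were 1.45-fold apart, whereas the replicate means were 1.05-fold apart, so the small SD between replicates does not describe the spread between libraries.

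*Igf2bp2* (plus strand, chr11:82466071-82621105) encodes an mRNA-binding protein of growing tissues. Its level was 19.7 and 19.5 FPKM in A1 and A2 against 25.0 and 20.1 FPKM in B1 and B2, with a mean of 21.1 ± 2.08 FPKM (SD, n = 2). B1 stood above the other libraries, and although A and B did not overlap, B2 exceeded A1 by less than B2 differed from B1. *Igf2bp1* (minus strand, chr10:83780203-83822996), the zipcode-binding protein that carries *Actb* mRNA in neurites, had 7.28 and 5.59 FPKM in A1 and A2 against 4.32 and 6.15 FPKM in B1 and B2. Here the libraries overlapped and the mean was 5.83 ± 0.849 FPKM (SD, n = 2). *Igf2bp2* exceeded *Igf2bp1* in every library, by 2.70-fold in A1 to 5.78-fold in B1.

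*Elavl1* lies on the plus strand of rn6 at chr12:2461502-2502432. It had 42.6 and 45.2 FPKM in A1 and A2 against 49.0 and 43.5 FPKM in B1 and B2, which overlapped between the replicates. Its mean was 45.1 ± 1.62 FPKM (SD, n = 2), and the difference of A minus B was -0.07 in log2(FPKM + 1), a measure that makes differences of weakly expressed genes look smaller than they are.

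*Elavl4* (minus strand, chr5:130001387-130085772) had 36.1 and 40.6 FPKM in A1 and A2 against 18.1 and 17.5 FPKM in B1 and B2. Both libraries of A stood above both libraries of B, and the technical libraries of a replicate were at most 1.12-fold apart. The mean was 28.1 ± 14.6 FPKM (SD, n = 2), the largest SD of the 7 genes. On the log2 scale *Elavl4* was 1.07 higher in A, a difference as large as or larger than that of 94.5% of the genes with at least 1 FPKM.

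*Elavl3* (minus strand, chr8:23030252-23063015) differed in the other direction, with 11.0 and 11.1 FPKM in A1 and A2 against 16.8 and 16.1 FPKM in B1 and B2. The technical libraries were no more than 1.04-fold apart, and the replicates did not overlap. The mean was 13.8 ± 3.80 FPKM (SD, n = 2) and the log2 difference was -0.53. *Elavl2* (minus strand, chr5:109499411-109625799) was the lowest of the family, with 4.01 and 4.46 FPKM in A1 and A2 against 2.87 and 2.65 FPKM in B1 and B2. As for *Elavl4*, both libraries of A were higher, and the mean was 3.50 ± 1.04 FPKM (SD, n = 2) with a log2 difference of 0.47.

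**Figure D1:**
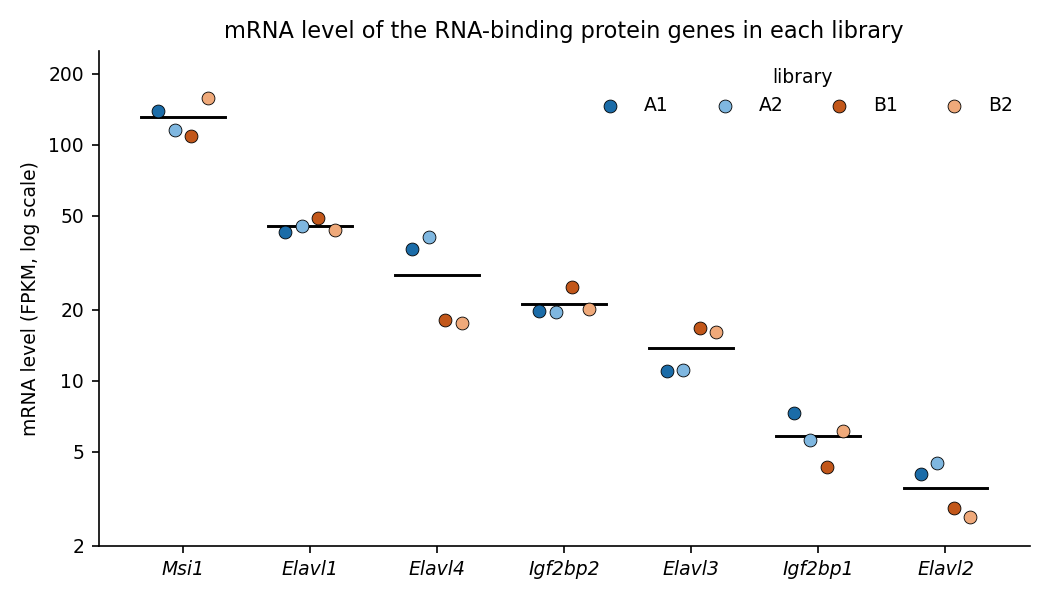
FPKM (log axis) of the 7 genes in the 4 libraries, ordered by the mean; each point is 1 library and each black line is the mean of the 2 biological replicates. *Msi1* is spread within B from 109 to 158 FPKM, while *Elavl4* splits by replicate, at 36.1 and 40.6 FPKM in A and 18.1 and 17.5 FPKM in B.

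The order of the levels held in every library for most neighbours. *Msi1* was 2.90-fold above *Elavl1*, *Elavl1* was 1.61-fold above *Elavl4*, *Igf2bp2* was 1.53-fold above *Elavl3* and *Elavl3* was 2.36-fold above *Igf2bp1*, and in these pairs the lowest library of the first gene exceeded the highest library of the next. *Elavl4* and *Igf2bp2* could not be ordered, since *Elavl4* was higher in 2 of 4 libraries, both of A, and lower in the 2 libraries of B. *Igf2bp1* was above *Elavl2* in 4 of 4 libraries, but their ranges over the libraries overlapped.

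Within the neuronal Elavl genes the make-up differed between the replicates. *Elavl4* made up 70.6% of their summed FPKM in A1 and 72.3% in A2, and 47.9% in B1 and 48.2% in B2. The share of *Elavl3* was 21.6% in A1 and 19.8% in A2 against 44.5% in both B1 and B2, while that of *Elavl2* lay between 7.32% and 7.94% in all 4 libraries. *Elavl4* was thus 3.46 times *Elavl3* in A and 1.08 times *Elavl3* in B. The sum itself was 53.7 FPKM in A and 36.99 FPKM in B. For each of the 3 genes the shares in technical libraries lay closer together than those of the replicates, which for *Elavl2* were only 7.89% in A and 7.47% in B.

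**Figure D2:**
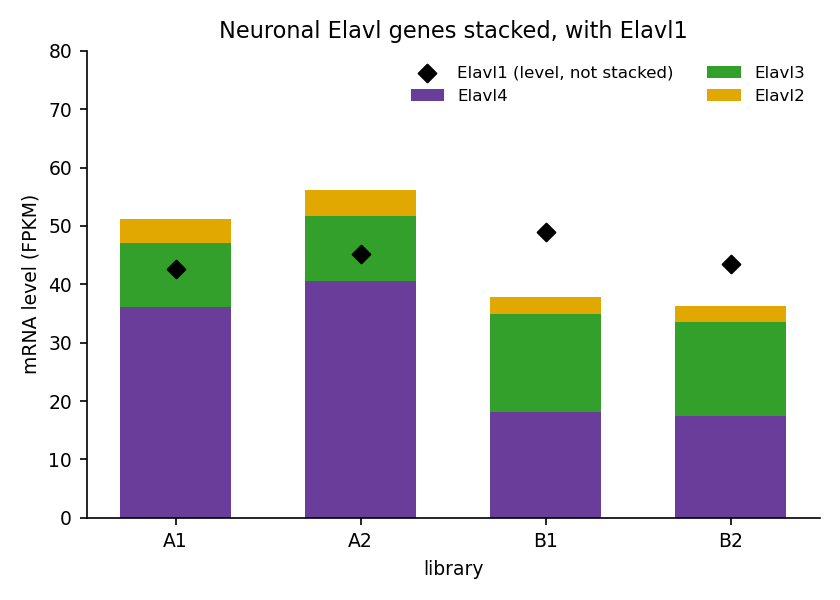
Stacked FPKM of *Elavl4*, *Elavl3* and *Elavl2* in each library, with *Elavl1* as a diamond on the same axis. In A the stack reaches 51.1 and 56.2 FPKM, above *Elavl1*, and in B it reaches 37.7 and 36.2 FPKM, below *Elavl1*.

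The ratio of *Elavl1* to this sum was 0.818 in A and 1.25 in B. On the log2 scale the ratio was -0.29 in A and 0.32 in B, a mean of 0.02 ± 0.43 (SD, n = 2), so that the replicates lay on either side of equal amounts. Against *Elavl4* alone, the highest neuronal gene in each library, *Elavl1* was higher in all 4 libraries, by 1.11-fold in A2 to 2.71-fold in B1.

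The progenitor genes summed to 166 and 140 FPKM in A1 and A2 (mean 153) and to 139 and 184 FPKM in B1 and B2 (mean 162), so the replicates overlapped and the higher mean of B rested on B2. They exceeded the neuronal Elavl genes 2.86-fold in A and 4.37-fold in B, which is a mean log2 ratio of 1.82 ± 0.43 (SD, n = 2) and was above 0 in 4 of 4 libraries. This ratio was carried by *Msi1*, which made up 83.0% of the progenitor sum in A and 82.8% in B. Without *Msi1*, in a calculation added after the values were seen, the ratio was 0.485 in A and 0.750 in B. The neuronal genes were then the higher group in both replicates. In bulk RNA fewer cells of a type and less RNA per cell cannot be told apart, and the sums do not give a share of neurons.

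The differences between A and B were read against all 10481 genes that averaged 1 FPKM or more. The libraries of A and B did not overlap for 4 of the 7 genes, 2 of them higher in A and 2 higher in B. Over all genes this was the case for 60.1%, with 32% higher in A and 28.1% higher in B, so such a separation was common. With B2 left out, a count added after the values were seen, it was 7 of 7 genes against 84.1% of all genes. A difference of at least 1 on the log2 scale without overlap was found for 1 of the 7, *Elavl4*, higher in A. Of all genes 6.15% differed in this way, 1.57% with the higher level in A and 4.58% with the higher level in B. Without B2 *Elavl4* was still the only one of the 7, against 5.5% of all genes. *Elavl4*, at 1.07, lay just past the required difference of 1, and the next gene, *Elavl3* at -0.53, fell short of it.

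The median difference of the 7 genes was -0.05 on the log2 scale, and that of all genes was 0.03. Regardless of sign, the median was 0.26 for the 7 genes and 0.24 for all genes. Between technical libraries the median over all genes was 0.11 for A1 and A2 and 0.22 for B1 and B2. The difference of *Elavl3* was as large as or larger than that of 80.5% of genes and that of *Elavl2* than that of 76.5%, whereas *Msi1* and *Elavl1* reached 12.0% and 16.1%. The order of these differences depended in part on B2, since without it *Igf2bp1* went from 0.26 to 0.47 on the log2 scale, above *Elavl2* at 0.43, and *Msi1* went from -0.05 to 0.21.

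**Figure D3:**
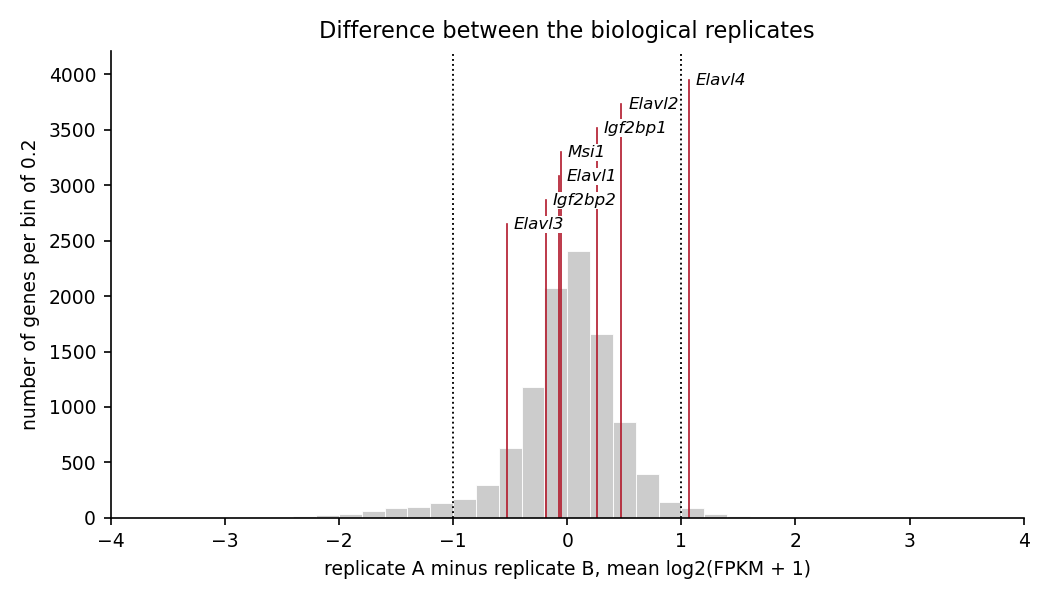
Number of genes (y axis) by the difference between replicates A and B in mean log2(FPKM + 1) (x axis, bins of 0.2, positive where A is higher) for 10481 genes; red lines mark the 7 genes (their heights only separate the names) and dotted lines a difference of 1 either way. *Elavl4* at 1.07 is beyond the dotted line and the other 6 genes lie between -0.53 and 0.47.

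Markers of some other cells also differed between A and B. Of 16 mesenchymal and meningeal markers 15 were in the tables. All 15 were higher in both libraries of B than in those of A, against 28.1% of all genes. For 14 of them the difference was at least 1 on the log2 scale (13 without B2, when *Ptgds* no longer passed), against 4.58% of all genes. Their summed level ranged from 788 to 798 FPKM in the libraries of A and from 3061 to 4159 FPKM in those of B, and none was at 0. The collagen genes *Col3a1*, *Col1a1* and *Col1a2* led this list, with 204, 163 and 141 FPKM in A and 768, 735 and 717 FPKM in B. *Igf2* is itself one of these markers. *H19*, *Ccnd1*, *Elavl3* and *Igf2bp2* were higher in the same replicate as these markers, and *Elavl4* and *Elavl2* in the other. With 2 replicates any gene that differs is higher in either A or B, so this carries no further information. The part of such cells in these differences was not tested.

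Of 17 markers of intermediate progenitors and neurons 15 were in the tables and 9 were at 1 FPKM or more. *Eomes* and *Neurog2* were not in the tables. Below 1 FPKM on average were *Nefm* (0.890), *Neurod6* (0.423), *Nefl* (0.327), *Neurod2* (0.301), *Neurod1* (0.292) and *Tbr1* (0.259 FPKM). For 5 of the 9 the libraries of A lay above those of B, for 0 the reverse, and for none was the difference at least 1, where of all genes 32% were apart with A higher and 60.1% in either direction. Their median difference was 0.37 on the log2 scale and the sum over the list ranged from 207 to 266 FPKM over the 4 libraries. The 3 highest were *Tubb3*, a neuronal tubulin, with 125 FPKM in A and 111 in B, *Gap43*, a growth-cone protein, with 63.7 and 69.3 FPKM, and *Stmn2*, a microtubule regulator of neurites, with 20.3 and 22.4 FPKM. The higher means of *Gap43* and *Stmn2* in B rested on B2, since B1 had 53.0 and 19.4 FPKM. *Elavl4*, at 38.4 FPKM in A and 17.8 in B, thus lay above *Stmn2* in A and below it in B. Among the progenitor markers 6 of 13 were apart with A higher and 1 with B higher (32% and 28.1% of all genes). *Fabp7* and *Hes5* were higher in A by at least 1 (2.95-fold and 2.21-fold), against 1.57% of all genes. Of 11 astrocyte and oligodendrocyte markers 9 were at 1 FPKM or more, 2 of them apart with A higher and 4 with B higher. By at least 1, *S100b* was higher in A (2.18-fold) and *Pdgfra* higher in B (6.39-fold), against 1.57% and 4.58% of all genes. Without B2 the difference of *S100b* was 0.92 and no longer passed. *Olig1*, a transcription factor of the oligodendrocyte lineage, had 172 and 195 FPKM in the libraries of A and 523 and 237 FPKM in B1 and B2, without overlap, and passed (-1.51) when B2 was left out. *Gfap*, the astrocyte filament, had 502 and 460 FPKM in A and overlapped with B, where B1 (419 FPKM) was the lowest and B2 (904 FPKM) the highest library, so the higher mean of B rested on B2. The 10 endothelial, microglial and erythroid markers were all below 1 FPKM on average, the highest being *Aif1* (0.719), *Cdh5* (0.381) and *Hba1* (0.335 FPKM).

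Other RNA-binding proteins gave a frame for the 7 genes. Of 15 neuronal ones, 13 were in the tables and 10 were at 1 FPKM or more. For 6 of these A lay above B without overlap and for 2 below, against 32% and 28.1% of all genes, by at least 1 for 0 of them, and the median difference was 0.31. The highest were *Khdrbs3*, a splicing regulator of the STAR family, at 56.6 FPKM in A, 59.3 in B1 and 43.6 in B2, *Ptbp2*, the neuronal polypyrimidine tract protein, at 40.8 and 31.7 FPKM, and *Celf3* at 30.0 and 21.4 FPKM. The sum over the list was 177 FPKM in A and 152 FPKM in B.

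Of 35 broadly expressed RNA-binding proteins, 31 were in the tables and 30 were at 1 FPKM or more. Here 10 were apart with A higher and 8 with B higher, which together is also close to the 60.1% of all genes, and the median difference was -0.05. The cold-shock protein gene *Ybx1* had 445 FPKM in A and 579 in B, *Hnrnpd* (AUF1), which binds AU-rich RNA as Elavl proteins do, had 321 and 338 FPKM, and *Pcbp2* had 261 and 276 FPKM. Only *Rbms1* differed by at least 1, with 5.69 and 5.93 FPKM in A1 and A2 and 18.1 and 27.4 FPKM in B1 and B2, which is 3.91-fold higher in B. Without B2 *Cpeb4* passed as well, with the higher level in A (log2 difference 1.22).

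RNAs that the proteins of these families are known to bind were listed as well (14 genes, 13 of them at 1 FPKM or more). The libraries of B lay above those of A for 7 of the 13 and below for 1, against 28.1% and 32% of all genes, and the median difference was -0.42. Together the 8 of 13 were close to the 60.1% of all genes that were apart. A difference of at least 1 was found for 3 of the 13, *Igf2*, *H19* and *Ccnd1*, all higher in B, against 4.58% of all genes. *Igf2* also belongs to the mesenchymal list above.
*Igf2*, a fetal growth factor, had 19.5 and 21.1 FPKM in A1 and A2 against 131 and 399 FPKM in B1 and B2, a 13.0-fold higher mean in B (6.44-fold without B2). *H19*, a noncoding RNA expressed from the same imprinted locus, had 19.9 and 20.4 FPKM in A1 and A2 against 164 and 105 FPKM in B1 and B2. *Ccnd1*, a cyclin of the G1 phase, was at 6.74 FPKM in A and 20.6 FPKM in B. *Igf2bp2* and *Igf2bp1* themselves were 1.15-fold higher in B and 1.23-fold higher in A.

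One target of Musashi-1 in this list is the Notch inhibitor *Numb*. It had 20.1 and 19.2 FPKM in A1 and A2 against 15.0 and 14.9 FPKM in B1 and B2, so A lay above B, while *Msi1* overlapped. Among AU-rich mRNAs bound by Elavl proteins, the transcription factor gene *Myc* was at 17.3 FPKM in A and 26.7 in B without overlap, and the cell cycle inhibitor *Cdkn1a* at 37.7 and 56.0 FPKM without overlap. The immediate early gene *Fos* was at 22.7 FPKM in A and 46.5 in B (B1 32.1, B2 60.9), and the angiogenic factor *Vegfa* at 162 and 209 FPKM with overlapping libraries. *Gap43*, a target of *Elavl4* in neurons, and *Tubb3* were given above, and *Mapt*, which encodes the axonal protein tau, was at 4.60 FPKM in A and 6.42 in B. *Actb* had 2750 FPKM in A and 3212 in B, and its higher mean in B came from B2 alone (3709 FPKM). The adhesion receptor *Cd44* had 10.2 and 10.8 FPKM in A, 5.61 in B1 and 20.9 in B2, so that B1 lay below and B2 above both libraries of A. The chromatin protein gene *Hmga2* had 0.399 and 0.414 FPKM in A, 2.20 in B1 and 0.168 in B2, with B1 above and B2 below both libraries of A.

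The let-7 pathway ties Lin28 proteins to this group, because Lin28 blocks let-7 maturation and let-7 in turn represses *Lin28b*, *Igf2bp1* and *Hmga2*. *Lin28a*, the paralogue of *Lin28b*, had between 0.068 and 0.096 FPKM in the 4 libraries, below the limit of 1 FPKM. Of 12 pathway genes 10 were in the tables and 7 were at 1 FPKM or more, with 2 apart and higher in A, 2 apart and higher in B (again near the 60.1% of all genes), and 0 by at least 1. The highest were the chromatin protein gene *Hmga1* (26.1 FPKM in A, 28.3 in B1 and 51.2 in B2), *Drosha* (27.0 and 25.2 FPKM, with B1 at 27.8), the nuclease that cuts primary microRNA, and *Dis3l2* (18.3 and 19.9 FPKM), which degrades uridylated pre-let-7.

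The tables also list 11 let-7 loci, of which 4 were at 1 FPKM or more. The mature RNAs of these 4 loci are shown because they share the seed through which let-7 recognises its targets; the sequences are those of RefSeq, 5′ to 3′, with the seed (bases 2 to 8) in capitals.
rno-let-7b-5p: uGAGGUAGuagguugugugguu
rno-let-7c-5p: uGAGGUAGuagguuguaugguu
rno-let-7d-5p: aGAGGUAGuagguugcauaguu
rno-let-7i-5p: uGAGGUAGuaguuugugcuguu
All 4 have the seed GAGGUAG. Mature microRNA carries no polyA tail, so the values are reads over the loci in polyA RNA and not levels of mature let-7, and because the rows cover only the short hairpins their FPKM was not compared with that of mRNAs. *Mirlet7b* had 24.4 and 25.5 FPKM in A1 and A2 against 13.3 and 5.81 FPKM in B1 and B2, and *Mirlet7c-2*, its neighbour on chromosome 7, had 13.4, 13.7, 5.61 and 5.14 FPKM. *Mirlet7d* was at 5.37 FPKM in A and 2.80 in B, and *Mirlet7i* at 5.62 and 3.55 FPKM (B1 5.05, B2 2.05). Without B2 the log2 difference of *Mirlet7i* fell from 0.63 to 0.13, while that of *Mirlet7d* rose from 0.74 to 0.85. All 4 loci were higher in both libraries of A, against 32% of all genes. *Mirlet7b* (2.61-fold) and *Mirlet7c-2* (2.52-fold) were higher in A by at least 1 on the log2 scale, against 1.57% of all genes. For *Mirlet7b* this rested on B2, the library of lowest depth, since without it the difference was 0.86, while that of *Mirlet7c-2* was 1.14. The median difference over the 4, with B2 included, was 0.97, and *Mirlet7a-2* and *Mirlet7a1* were listed at 0 in all libraries.

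**Figure D4:**
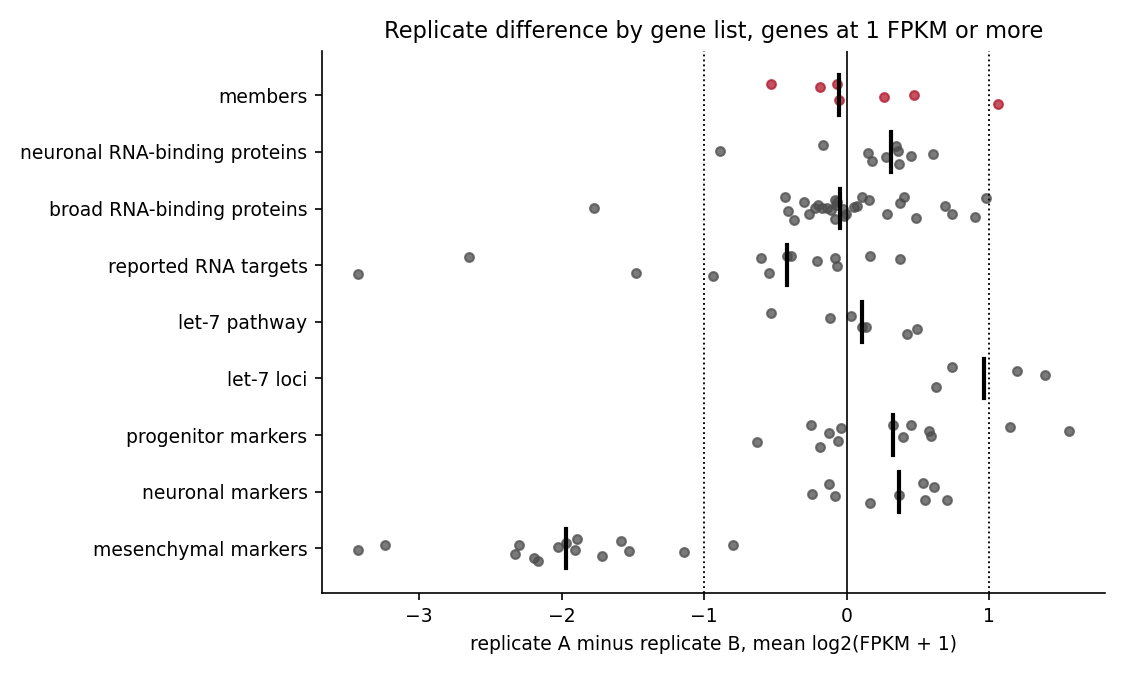
Difference between replicates A and B in mean log2(FPKM + 1) (x axis, positive where A is higher) for the genes at 1 FPKM or more of each list; each point is a gene, black bars are medians, and dotted lines mark a difference of 1. The 7 genes described here (red, labelled members) scatter around a median of -0.05, the 4 let-7 loci lie to the right with a median of 0.97, and the 15 mesenchymal markers lie to the left with a median of -1.97.

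The genes closest to the highest gene of each family over the 4 libraries were taken by the Euclidean distance in log2(FPKM + 1), which says nothing of shared function. For *Elavl1* they were *Ypel5* (distance 0.067), *Csnk2a2* (0.084) and *Cdc42ep4* (0.085). *Igf2bp2* was closest to *Faf1* (0.031), *Banp* (0.044) and *Pex2* (0.11), which share its higher value in B1. The nearest genes to *Msi1*, *Ctsh* (0.34), *Hdgfrp2* (0.34) and *Lamp2* (0.35), were farther away, so the pattern of *Msi1*, low in B1 and high in B2, had no close match at its level.

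The promoters of the 2 Elavl genes with the highest levels are shown because their levels behaved differently, *Elavl1* overlapping between the replicates and *Elavl4* apart by more than any other of the 7 genes. The sequences are the 100 bases before the RefSeq start in the GRCr8 build, a later assembly than the rn6 of the tables, at chr12:7482626-7482725 for *Elavl1* and chr5:130367664-130367763 for *Elavl4*, both from the minus strand of that build and 5′ to 3′, with a CCAAT box in capitals.
Elavl1: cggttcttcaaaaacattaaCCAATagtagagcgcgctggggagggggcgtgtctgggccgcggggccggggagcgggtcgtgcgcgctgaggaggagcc
Elavl4: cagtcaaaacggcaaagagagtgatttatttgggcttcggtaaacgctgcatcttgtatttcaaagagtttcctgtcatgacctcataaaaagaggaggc
The GC content was 67% for *Elavl1* and 42% for *Elavl4*, with a median of 54% over 33469 promoters of the same length. Both windows were searched on both strands for 4 motifs. The TATA box (TATAAA) was found in 5.78% of all promoters, the GC box (GGGCGG) in 21.6%, the E-box (CACGTG, a palindrome) in 2.79% and the CCAAT box in 17.1%. The window of *Elavl1* held the CCAAT box alone, and that of *Elavl4* held none of the 4. Of the other genes, the windows of *Elavl2* (63% GC), *Elavl3* (76%) and *Igf2bp2* (87%) were searched in the same way, and the GC box was found for *Elavl3* and *Igf2bp2* and no motif for *Elavl2*.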

How the data were processed

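PolyA RNA-seq of cortical neural progenitors was examined in 4 libraries, grouped by the sample labels into biological replicates A and B with 2 technical libraries each. The authors deposited FPKM, scaled to transcript length and library depth, which was used as it stands. The deposited TPM values were made by the authors as well and were used as an alternative. The deposited coverage, a signal not scaled for depth, served to compare the depth of the libraries. The submitters' processing notes name cutadapt, HISAT, STAR and StringTie and the build rn6, with no versions, and the table layout is that of StringTie, while the methods give another source for FPKM.

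Rows that share a gene name were added. FPKM was then averaged over technical libraries and given as mean ± SD of 2 biological replicates. Nothing in the labels says whether A and B came from separate litters. Genes counted as differing had a mean of at least 1 FPKM, a difference of at least 1 between the replicate means of log2(FPKM + 1), and no overlap between libraries of A and B. Folds are ratios of replicate means of FPKM. No p-value was computed. The counting was tested on simulated data of 17337 genes and recovered each of 200 genes given a 4-fold change, with 0 false counts. This change is larger than the 2.16-fold of *Elavl4*, so the test does not show how calls near the required difference of 1 behave. The genes and lists were chosen with earlier results of these data known. Named are all genes of the 4 families, all listed RNA targets, the 3 highest genes of each list, those listed at 0, and the 3 nearest genes. Also named are those counted as differing (for mesenchymal markers as a count) and the neuronal markers absent or below 1 FPKM. Sequences come from RefSeq (GRCr8), where all 11 let-7 loci were matched and a promoter was found for 5 of the 7 genes. None was found for *Msi1* and *Igf2bp1* in the set used, which does not show that RefSeq lacks these genes. Alternatives were TPM, another pseudocount, thresholds or scaling, and libraries or replicates left out. Python 3.11.15 with numpy 2.4.6, pandas 2.3.3 and matplotlib 3.10.9 was used.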

Additional observations from a re-analysis of the deposited data

Results flagged for a closer look

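The 4 libraries were examined for 39 values (the 7 genes, their ratios and shares, and some other named genes). In 4 of the 39 values 1 library stood apart from the other 3 by more than Dixon's 95% critical value. That value gives 1 in 20 by chance among independent libraries. These are technical libraries of 2 replicates and several values share genes, so this rate does not apply. Cell markers were examined only where they are also listed RNA targets, so *Ptgds* (292 FPKM in B2 against 3.86 to 8.18 FPKM) was not included. *Igf2bp2* had 25.0 FPKM in B1 against 19.5 to 20.1 FPKM in the other libraries. *Hmga2*, a let-7 target, had 2.20 FPKM in B1 against 0.168 to 0.414 FPKM. *Hmga1* had 51.2 FPKM in B2 against 24.8 to 28.3 FPKM, and *Actb* had 3709 FPKM in B2 against 2706 to 2795 FPKM. B2 was the library with the lowest depth. In each case the library that stood apart belonged to B.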

How the results depend on the processing

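The log2 ratio of progenitor to neuronal genes, 1.82, was 0.60 when the median of each group replaced the sum, and, in alternatives chosen after seeing the data, -0.73 without *Msi1* and 3.20 without *Elavl4*. With 1 replicate left out it ranged from 1.51 to 2.13. The log2 ratio of *Elavl1* to the neuronal Elavl genes, 0.02, ranged from -0.29 to 0.32 with 1 replicate left out, a change of sign that follows from the opposite signs in A and B, and was 1.39 without *Elavl4*. With 1 replicate left out the level of *Elavl4* was 17.8 or 38.4 FPKM; a mean of 2 replicates cannot move by more than its SD in this way, so such values say nothing of stability. At a limit of 10 FPKM 5 of the 7 genes were counted. TPM changed the unit of all 7 levels, and without B2 the level of *Msi1* was 118 FPKM. *Elavl4* was the only one of the 7 genes that differed between A and B under each of the alternatives run. Over all genes, 645 differed (165 higher in A and 480 in B), and 1732 (754 and 978) at a log2 difference of at least 0.58; the count was 894 (279 and 615) with a pseudocount of 0.1, 759 (239 and 520) with TPM and 573 (188 and 385) without B2. Among the listed genes, leaving out B2 ended the difference of *S100b*, *Ptgds* and *Mirlet7b*, and *Olig1*, *Cpeb4* and *Hmga2* then passed. It also turned the direction of 19 of the 113 listed genes at 1 FPKM or more, *Msi1*, *Vim*, *Gap43*, *Stmn2*, *Khdrbs3*, *Drosha*, *Actb*, *Cd44* and *Gfap* among them, and 0 of the 19 differed by at least 1 with or without B2. No scaling moved the median of all genes by more than 0.1, and the signs of all 7 genes were kept. The ratio of *Msi1* to *Msi2* could not be computed. No paired analysis was possible because there is 1 condition. Depth limits the lowest genes most, in B2.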
